A study of Homo sapiens with 18 samples.

Results

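The 39 genes described here encode the B-cell receptor (BcR) signalling machinery, from the receptor chains and their first kinases to the coreceptors, inhibitors, adaptors, phosphatidylinositol 3-kinase, calcium channels and NFAT factors. They were taken by symbol from a table of read counts that lists 56609 gene symbols, and each of them had at least 10 counts in all and entered the tests. RNA was sequenced and counted per gene in 18 libraries of 3 chronic lymphocytic leukemia (CLL) cell lines, HG3, MEC2 and PCL12, with 3 libraries in each of 6 groups. Cells of each line were left unstimulated or were exposed for 4 h to 2.5 µg/ml of CpG-ODN2006, an unmethylated oligonucleotide that activates Toll-like receptor 9. All 3 lines are Epstein-Barr virus positive per the study's methods, each stands for 1 immortalised culture, and the 3 libraries of a group are replicates of that culture rather than of different leukemias. The comparisons ask how the BcR machinery differs between the unstimulated lines and whether 4 h of CpG changed it.

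The BcR is a membrane immunoglobulin that signals through the CD79A and CD79B chains. Src-family kinases such as LYN phosphorylate these chains, SYK docks on them, and the adaptor BLNK brings BTK to its substrate PLCG2, which releases calcium and activates protein kinase C, RAS, NF-κB and NFAT. The coreceptors CD81 and CR2 help to lower the threshold of the receptor, while CD22 and CD72 recruit the phosphatase PTPN6, and INPP5D removes the lipid that PIK3CD makes. In CLL this pathway is a main source of survival signals, and BTK, SYK and PIK3CD are drug targets.

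The libraries held 20382943 to 67308932 counts, of which the 39 genes took 0.424 to 0.739%, and 3 counts in a library correspond to 0.0446 to 0.147 CPM (the count scaled to library size). The markers of B cells summed to 1873 to 2169 CPM in unstimulated MEC2, above the 1285 to 1786 CPM of HG3 and the 1271 to 1533 CPM of PCL12, and those of plasma cells to 202 to 247, 168 to 419 and 368 to 567 CPM in the same order. The myeloid list summed to 3.35 to 5.90 CPM in unstimulated MEC2, 10.1 to 12.3 CPM in HG3 and 1.47 to 2.44 CPM in PCL12. The part of these lists in the differences between lines was not tested. The T-cell list was carried by TRAC at 35.7 to 140.1 CPM, while CD3D reached at most 1 count and CD3G at most 4. In their highest library CD4 reached 4.13 CPM, CD3E 2.37, CD7 2.21 and CD2 1.13 CPM, and 5 of the 10 T-cell genes stayed below 1 CPM everywhere. Mitochondrial genes took 20.2% of the counts of HG3 unstimulated replicate 2 and 19.7% of those of MEC2 CpG replicate 2, against 2.82 to 9.28% elsewhere. The HG3 library was the lowest of its group in 26 of the 39 genes, and it was so in 49.9% of 13991 genes whose mean reached 1 CPM. PCL12 replicates 2 and 3 differed from PCL12 replicate 1 in genes abundant in MEC2, and the source of this difference was not tested. For 45 genes that reached 20 CPM in all MEC2 libraries and stayed within 10% of it in PCL12 replicate 1, the median in these libraries was 29.0 to 31.3% of the MEC2 level, while such values were 0.986 to 3.40% for the other pairs of lines. For the 39 genes, the calls of PCL12 are therefore also given with replicate 1 only, where PCL12 has 1 library per treatment and its spread is assumed to be that of the other groups. In bulk RNA, fewer cells of a kind and less RNA per cell cannot be told apart. These levels are CPM scaled by trimmed mean of M-values (TMM), given for replicates 1, 2 and 3 in that order, and differences are log2 fold changes (Log2FC) ± SE from edgeR's quasi-likelihood test over 31872 genes, with Benjamini-Hochberg adjusted p-values and a threshold of 0.05.

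In the unstimulated state, more of the 39 genes were called against HG3 than between PCL12 and MEC2. Compared with HG3, 11 of the 39 genes were higher in MEC2 and 3 were lower, where 4.81% of all genes tested were higher and 4.97% lower. Compared with HG3, 9 genes were higher in PCL12 and 2 were lower, against 4.87% and 4.57% of all genes. PCL12 and MEC2 differed in 4 of the 39 genes, 1 higher and 3 lower in PCL12, against 1.53% and 0.524% of all genes. The median Log2FC of the 39 genes was 0.37 for MEC2 over HG3, 0.34 for PCL12 over HG3 and -0.08 for PCL12 over MEC2, and the median of all genes was 0 in each. These comparisons share groups, so that HG3 enters the first and the second. PCL12 replicates 2 and 3 stood at 29.0 to 31.3% of the MEC2 level in the chosen genes abundant in MEC2. The part of this in the comparisons of PCL12 with HG3 and MEC2 was not tested. In all, 18 genes were called in at least 1 comparison and 21 in none, where 13.5% of all genes and 24.9% of those whose mean reached 1 CPM were called. HG3 had the lowest mean for 20 genes and the highest for 9, against 40.0% and 38.8% of the genes whose mean reached 1 CPM. The highest line mean exceeded the lowest by less than 1.5 times for 11 genes, by 1.5 to 2 times for 14 and by 2 times or more for 14, where 41.6% of those genes were under 1.5 times and 35.7% at 2 times or more. Among genes whose mean reached 1 CPM the higher and lower calls came to 9.17% and 8.85% for MEC2 over HG3, to 9.14% and 8.14% for PCL12 over HG3 and to 3.23% and 1.18% for PCL12 over MEC2, where the 1 higher gene is 2.56% of the 39. Without HG3 unstimulated replicate 2 the calls over HG3 were 9 higher and 4 lower in MEC2, and 7 higher and 5 lower in PCL12, where the same fit called 4.11% and 4.73% of all genes for MEC2 over HG3 and 4.43% and 4.58% for PCL12 over HG3. With PCL12 replicate 1 only, the calls of PCL12 over HG3 went from 11 to 6, with 5 higher and 1 lower, against 2.35% and 2.01% of all genes, and those of PCL12 over MEC2 were 1 higher and 2 lower, against 1.04% and 0.944%.

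**Figure D1:**
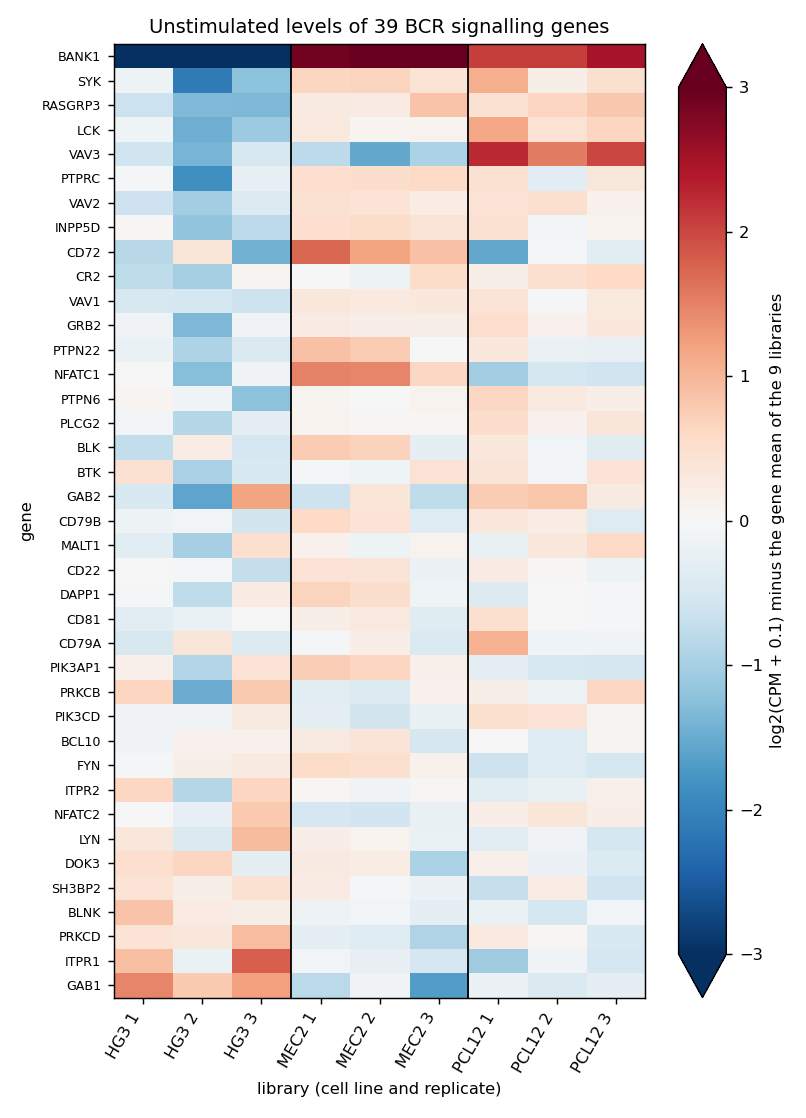
Unstimulated level of the 39 genes in the 9 unstimulated libraries, as log2(CPM + 0.1) minus the mean of the gene over the 9 libraries, with colours saturating at -3 and 3. Genes are ordered by the difference between HG3 and the other lines, so that BANK1 and SYK are at the top, lower in HG3, and ITPR1 and GAB1 are at the bottom, higher in HG3.

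The receptor chains did not pass the threshold between any lines. CD79A was at 345, 627 and 367 CPM in unstimulated HG3, at 462, 561 and 361 CPM in MEC2 and at 997, 449 and 449 CPM in PCL12, with a Log2FC of 0.05 ± 0.32 for MEC2 over HG3 and 0.50 ± 0.32 for PCL12 over HG3. With PCL12 replicate 1 only, the CD79A Log2FC was 1.18 over HG3 (adjusted p = 0.137, edgeR) and 1.14 over MEC2 (adjusted p = 0.255, edgeR). CD79B was at 91.3, 95.4 and 69.0 CPM in HG3, at 155, 135 and 77.2 CPM in MEC2 and at 128, 119 and 78.3 CPM in PCL12. The groups overlapped for both chains, and the smallest adjusted p for CD79B was 0.268 (edgeR, MEC2 over HG3).

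SYK, the kinase that docks on the phosphorylated receptor chains, was the core kinase that separated the lines. It was at 69.0, 18.1 and 32.7 CPM in HG3, at 121, 122 and 103 CPM in MEC2 and at 164, 87.2 and 108 CPM in PCL12. Each HG3 library was below each library of the other lines, and SYK was 2.88-fold higher in MEC2 (Log2FC 1.53 ± 0.36, adjusted p = 0.00644, edgeR) and 2.99-fold higher in PCL12 (Log2FC 1.58 ± 0.36, adjusted p = 0.00491, edgeR). Both calls held in all 18 fits that left out 1 library, while the SYK Log2FC ran from 1.20 without HG3 unstimulated replicate 2 to 2.20 without HG3 unstimulated replicate 1 for MEC2, and from 1.26 to 2.26 for PCL12. With PCL12 replicate 1 only, SYK was higher by Log2FC 2.05 (adjusted p = 0.0112, edgeR).

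LYN, the Src-family kinase that starts BcR signalling and also feeds its inhibition, was at 238, 139.9 and 364 CPM in HG3, at 216, 201 and 164 CPM in MEC2 and at 149, 176 and 130.2 CPM in PCL12, and no difference was called (smallest adjusted p = 0.164, edgeR, PCL12 over HG3). BTK was at 149, 55.4 and 79.7 CPM in HG3, at 106, 99.3 and 148 CPM in MEC2 and at 142, 103 and 146 CPM in PCL12, with overlap of all groups. BLNK had its highest mean in HG3, at 203, 132 and 126 CPM, and was at 101, 106 and 92.8 CPM in MEC2 and at 97.9, 77.6 and 106 CPM in PCL12. The BLNK libraries of HG3 lay above those of both other lines without overlap, yet the adjusted p was 0.0546 for PCL12 and 0.102 for MEC2 (edgeR). PLCG2 was at 236, 139 and 209.6 CPM in HG3, at 271, 258 and 257 CPM in MEC2 and at 359.9, 276 and 324 CPM in PCL12. It was 1.64-fold higher in PCL12 than in HG3 (Log2FC 0.71 ± 0.23, adjusted p = 0.0479, edgeR), a call that held in 4 of 18 fits leaving out 1 library, with a Log2FC of 0.90 and an adjusted p of 0.211 with PCL12 replicate 1 only.

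The other Src-family kinases went different ways. LCK, better known from T cells and also expressed in CLL, was at 80.8, 31.6 and 41.3 CPM in HG3, at 108, 92.8 and 94.4 CPM in MEC2 and at 196, 119 and 138 CPM in PCL12, without overlap between HG3 and the other lines. It was 2.94-fold higher in PCL12 than in HG3 (Log2FC 1.56 ± 0.30, adjusted p = 0.000679, edgeR) and 1.92-fold higher in MEC2 (Log2FC 0.94 ± 0.29, adjusted p = 0.0410, edgeR), the latter with an adjusted p of 0.169 without HG3 unstimulated replicate 2. With PCL12 replicate 1 only, the LCK Log2FC over HG3 was 1.95 (adjusted p = 0.00348, edgeR). The T-cell list summed to 91.7 to 145 CPM in unstimulated HG3, where LCK was lowest, and to 58.2 to 115 CPM in unstimulated PCL12, where it was highest, and its part in the LCK difference was not tested. FYN was at 149, 177 and 187 CPM in HG3, at 228, 217 and 171 CPM in MEC2 and at 101, 119.8 and 108 CPM in PCL12. FYN was 1.88-fold lower in PCL12 than in MEC2 (Log2FC -0.91 ± 0.23, adjusted p = 0.0375, edgeR), with an adjusted p of 0.297 and nearly the same Log2FC with PCL12 replicate 1 only, and 0.189 without PCL12 unstimulated replicate 1. BLK, a Src kinase of B cells, was not called, although its mean was highest in MEC2 (276 ± 97.8 CPM, SD, n = 3) and lowest in HG3 (166 ± 61.1 CPM, SD, n = 3).

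Among the coreceptors and inhibitors, CD72 was highest in MEC2, and most other calls were of MEC2 over HG3. CD72, an inhibitory receptor that recruits PTPN6, was at 24.7, 17.1 and 13.9 CPM in MEC2, at 4.15, 9.60 and 2.74 CPM in HG3 and at 2.53, 7.27 and 5.97 CPM in PCL12. Each MEC2 library exceeded each library of the other lines. CD72 was 3.41-fold higher in MEC2 than in HG3 (Log2FC 1.77 ± 0.44, adjusted p = 0.00804, edgeR) and 3.54-fold lower in PCL12 than in MEC2 (Log2FC -1.82 ± 0.44, adjusted p = 0.0222, edgeR). These calls ended in some fits that left out 1 library, with adjusted p of 0.0611 without MEC2 unstimulated replicate 1 and 0.185 without PCL12 unstimulated replicate 1. Without HG3 unstimulated replicate 2 the CD72 Log2FC of MEC2 over HG3 was 2.45, and with PCL12 replicate 1 only CD72 was 7.17-fold lower in PCL12 than in MEC2 (Log2FC -2.84, adjusted p = 0.0350, edgeR). Further regulators were also higher in MEC2 than in HG3, each by a smaller factor than CD72. INPP5D, the lipid phosphatase SHIP1, was higher by Log2FC 1.04, PTPRC, the receptor phosphatase CD45 that activates Src kinases, by 1.07, and PTPN22, a phosphatase that restrains Src kinases, by 1.09. Their adjusted p-values were 0.0126, 0.0285 and 0.0120 (edgeR). For PCL12 over HG3 the Log2FC was 0.72 for INPP5D, 0.72 for PTPRC and 0.47 for PTPN22 (adjusted p = 0.0993, 0.173 and 0.335, edgeR), and none of them was called between PCL12 and MEC2 (adjusted p = 0.731, 0.750 and 0.401, edgeR), so that HG3 had the lowest mean of each. The PTPRC call ended without HG3 unstimulated replicate 2, where PTPRC was at 49.1 CPM against 172 and 149.7 CPM in the other HG3 libraries (adjusted p = 0.0799, edgeR), the INPP5D call without HG3 unstimulated replicate 3 (adjusted p = 0.0601) and the PTPN22 call without MEC2 unstimulated replicate 1 (adjusted p = 0.0695).

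CR2, the complement receptor of B cells, was at 76.5, 65.4 and 138 CPM in HG3 and at 147, 182 and 197 CPM in PCL12, 1.88-fold higher in PCL12 (Log2FC 0.91 ± 0.29, adjusted p = 0.0491, edgeR). Its adjusted p was 0.589 (Log2FC 0.67) with PCL12 replicate 1 only and 0.148 without HG3 unstimulated replicate 2. CD22, CD81, the phosphatase PTPN6 and the adaptor DOK3 were not called between any lines. The highest line mean of CD22 exceeded the lowest by 1.38 times, that of CD81 by 1.27 times, that of DOK3 by 1.39 times and that of PTPN6 by 1.61 times.

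**Figure D2:**
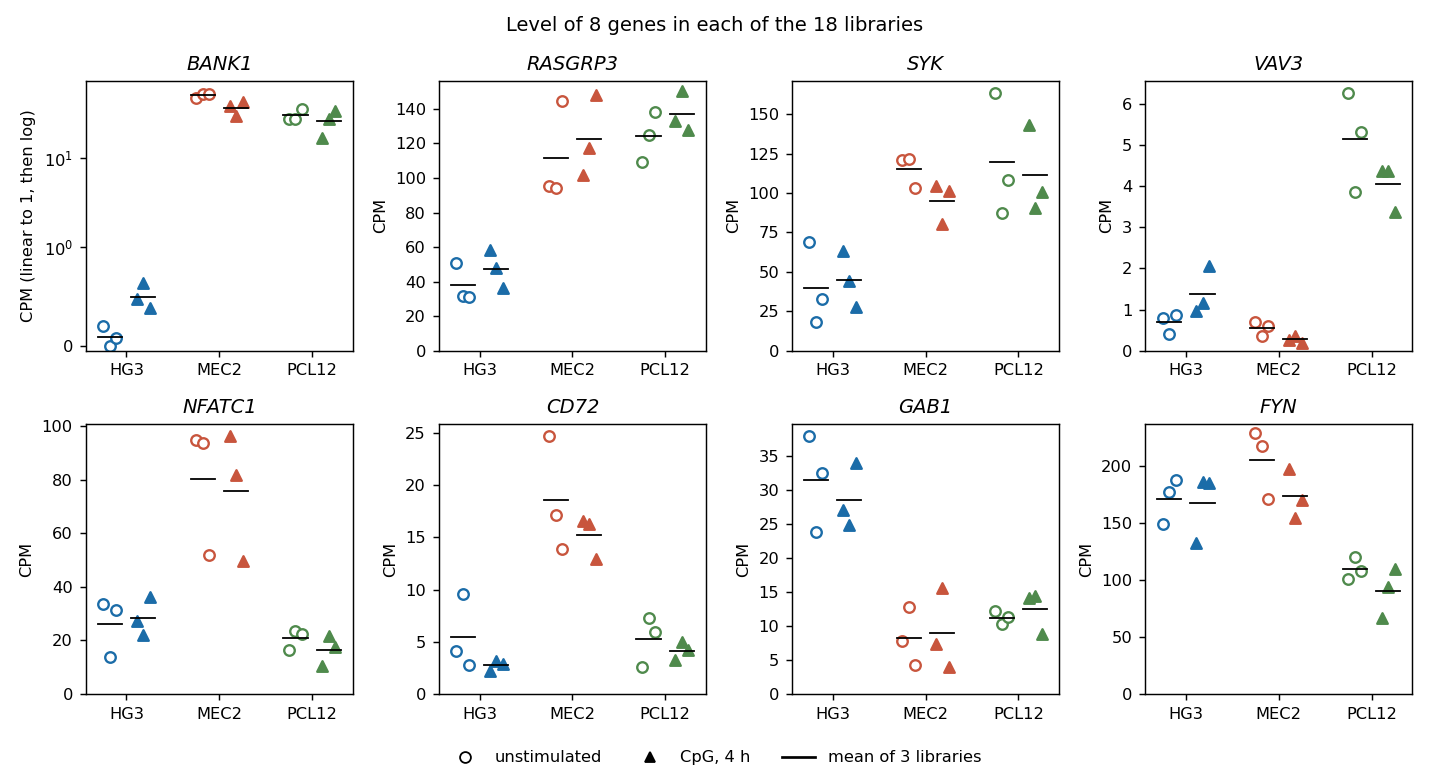
Level of 8 genes in CPM in each of the 18 libraries, with open circles for unstimulated and filled triangles for CpG-stimulated libraries and a line at the mean of 3. The BANK1 axis is linear up to 1 CPM and logarithmic above. BANK1 lay below 1 CPM in all HG3 libraries and above 10 CPM in the rest, VAV3 was highest in PCL12, NFATC1 and CD72 in MEC2, and GAB1 in HG3.

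BANK1, a B-cell scaffold that links LYN to the calcium channels, showed the largest difference among the 39 genes. It had 9, 0 and 3 counts in unstimulated HG3, which is 0.198, 0 and 0.0789 CPM, against 47.2, 52.1 and 52.2 CPM in MEC2 and 27.0, 26.8 and 35.5 CPM in PCL12. Summed over the 3 libraries, 12 counts in HG3 stood against 4755 in MEC2 and 3125 in PCL12. The ratio of the summed levels was 431 for MEC2 over HG3 (exact 95% interval 247 to 836) and 262 for PCL12 over HG3 (149.7 to 507), where the intervals cover counting error only. Both differences were called (adjusted p = 3.63e-12 and 1.45e-11, edgeR) and held in all 18 fits that left out 1 library and with PCL12 replicate 1 only. Without HG3 unstimulated replicate 1, which held 9 of the 12 counts, the fitted BANK1 Log2FC was 9.88 for MEC2 and 9.11 for PCL12, against 8.78 and 8.02 with it.

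The VAV exchange factors, which turn on RAC GTPases below the receptor, differed in their pattern from each other. VAV3 was at 6.25, 3.85 and 5.32 CPM in PCL12, at 0.791, 0.413 and 0.868 CPM in HG3 and at 0.688, 0.367 and 0.598 CPM in MEC2, so that the PCL12 libraries stood alone. It was 7.32-fold higher in PCL12 than in HG3 (Log2FC 2.87 ± 0.60, adjusted p = 0.00159, edgeR) and 9.22-fold higher than in MEC2 (Log2FC 3.21 ± 0.61, adjusted p = 0.00254, edgeR), and both calls held with PCL12 replicate 1 only (Log2FC 3.17 and 3.52, adjusted p = 0.0479 and 0.0444, edgeR). VAV1 was at 43.8, 42.2 and 39.9 CPM in HG3, at 76.8, 75.002 and 75.5 CPM in MEC2 and at 81.2, 59.9 and 74.3 CPM in PCL12. HG3 libraries lay below all others, with Log2FC 0.85 ± 0.22 for MEC2 (adjusted p = 0.0113, edgeR) and 0.77 ± 0.22 for PCL12 (adjusted p = 0.0229, edgeR). VAV2 was lowest in HG3 too, at 88.8, 66.1 and 102 CPM in HG3, 189, 182 and 159 CPM in MEC2 and 181, 192 and 149 CPM in PCL12. Its Log2FC was 1.04 ± 0.23 for MEC2 (adjusted p = 0.00285, edgeR) and 1.02 ± 0.23 for PCL12 (adjusted p = 0.00352, edgeR). With PCL12 replicate 1 only, the calls of PCL12 over HG3 ended for VAV1 (Log2FC 0.97, adjusted p = 0.111) and VAV2 (Log2FC 1.09, adjusted p = 0.0841) at no smaller a difference, and that of VAV1 also without PCL12 unstimulated replicate 1 (adjusted p = 0.105).

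GAB1, an adaptor that gathers PI3-kinase and the phosphatase SHP2 at the membrane, went the other way. It was at 38.0, 23.9 and 32.5 CPM in HG3, at 7.79, 12.9 and 4.22 CPM in MEC2 and at 12.2, 10.2 and 11.3 CPM in PCL12, so that each HG3 library exceeded all others. It was 3.80-fold lower in MEC2 (Log2FC -1.93 ± 0.41, adjusted p = 0.00184, edgeR) and 2.80-fold lower in PCL12 (Log2FC -1.49 ± 0.40, adjusted p = 0.0156, edgeR), the latter with a Log2FC of -1.35 and an adjusted p of 0.349 with PCL12 replicate 1 only and 0.0658 without PCL12 unstimulated replicate 2. Its relative GAB2 was at 1.39 to 10.0 CPM in HG3 and was not called between any lines, nor were PIK3CD, PIK3AP1, DAPP1, GRB2 and SH3BP2. PIK3AP1, the PI3-kinase adaptor BCAP, was 264 ± 53.7 CPM in MEC2 and 136 ± 11.9 CPM in PCL12 (SD, n = 3), a Log2FC of -0.96 with an adjusted p of 0.0714 (edgeR).

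Downstream of PLCG2, RASGRP3, which passes the diacylglycerol signal to RAS, was lowest in HG3 at 50.6, 31.9 and 31.3 CPM. It was at 95.5, 94.5 and 145 CPM in MEC2 and at 109, 125 and 138 CPM in PCL12, without overlap with HG3. The gene was 2.94-fold higher in MEC2 (Log2FC 1.56 ± 0.26, adjusted p = 0.000137, edgeR) and 3.27-fold higher in PCL12 (Log2FC 1.71 ± 0.26, adjusted p = 4.21e-05, edgeR), and both calls held in all 18 fits that left out 1 library. RASGRP3 was higher than in HG3 by Log2FC 1.54 with PCL12 replicate 1 only (adjusted p = 0.0160, edgeR). FAM98A exons overlap those of RASGRP3 on the other strand, and the study's methods name a stranded library, but whether reads were counted by strand is not given in the sources used here. In all, 14 of the 39 genes had an exon overlapped on the other strand, among them the called genes CD72, INPP5D, PTPN22, NFATC1 and ITPR1. A further limit is that 5 of the 39, PLCG2 among them, had an exon shared with another gene on the same strand.

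NFATC1, a factor that calcineurin sends to the nucleus, was at 94.7, 93.6 and 52.0 CPM in MEC2, at 33.6, 13.9 and 31.3 CPM in HG3 and at 16.4, 23.5 and 22.4 CPM in PCL12. MEC2 libraries exceeded all others, and NFATC1 was 3.04-fold higher in MEC2 than in HG3 (Log2FC 1.60 ± 0.34, adjusted p = 0.00207, edgeR) and 3.86-fold lower in PCL12 than in MEC2 (Log2FC -1.95 ± 0.35, adjusted p = 0.00126, edgeR). Both calls held in all 18 fits that left out 1 library, and with PCL12 replicate 1 only the NFATC1 Log2FC against MEC2 was -2.26 (adjusted p = 0.0265, edgeR). NFATC2 had its lowest mean in MEC2, 43.5 ± 5.88 CPM (SD, n = 3), and was not called (adjusted p = 0.108 for MEC2 over HG3, edgeR).

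PRKCD, a protein kinase C that restrains B cells, was at 203, 195 and 294 CPM in HG3, at 126, 119 and 82.2 CPM in MEC2 and at 189, 159 and 111 CPM in PCL12. It was 2.12-fold lower in MEC2 than in HG3 without overlap (Log2FC -1.08 ± 0.26, adjusted p = 0.00690, edgeR, or 0.0581 without MEC2 unstimulated replicate 3). ITPR1, a calcium channel of the endoplasmic reticulum, was at 211, 99.7 and 394 CPM in HG3, and its lowest HG3 library lay inside the range of the other lines. ITPR1 was lower in MEC2 (Log2FC -1.32 ± 0.38, adjusted p = 0.0292, edgeR) and in PCL12 (Log2FC -1.54 ± 0.39, adjusted p = 0.0105, edgeR), and without HG3 unstimulated replicate 3 these adjusted p-values were 0.226 and 0.103 (Log2FC -0.72 and -0.95). ITPR1 differed from HG3 by a Log2FC of -2.09 with PCL12 replicate 1 only (adjusted p = 0.0423, edgeR). PRKCB, ITPR2, BCL10 and MALT1 were not called between any lines.

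**Figure D3:**
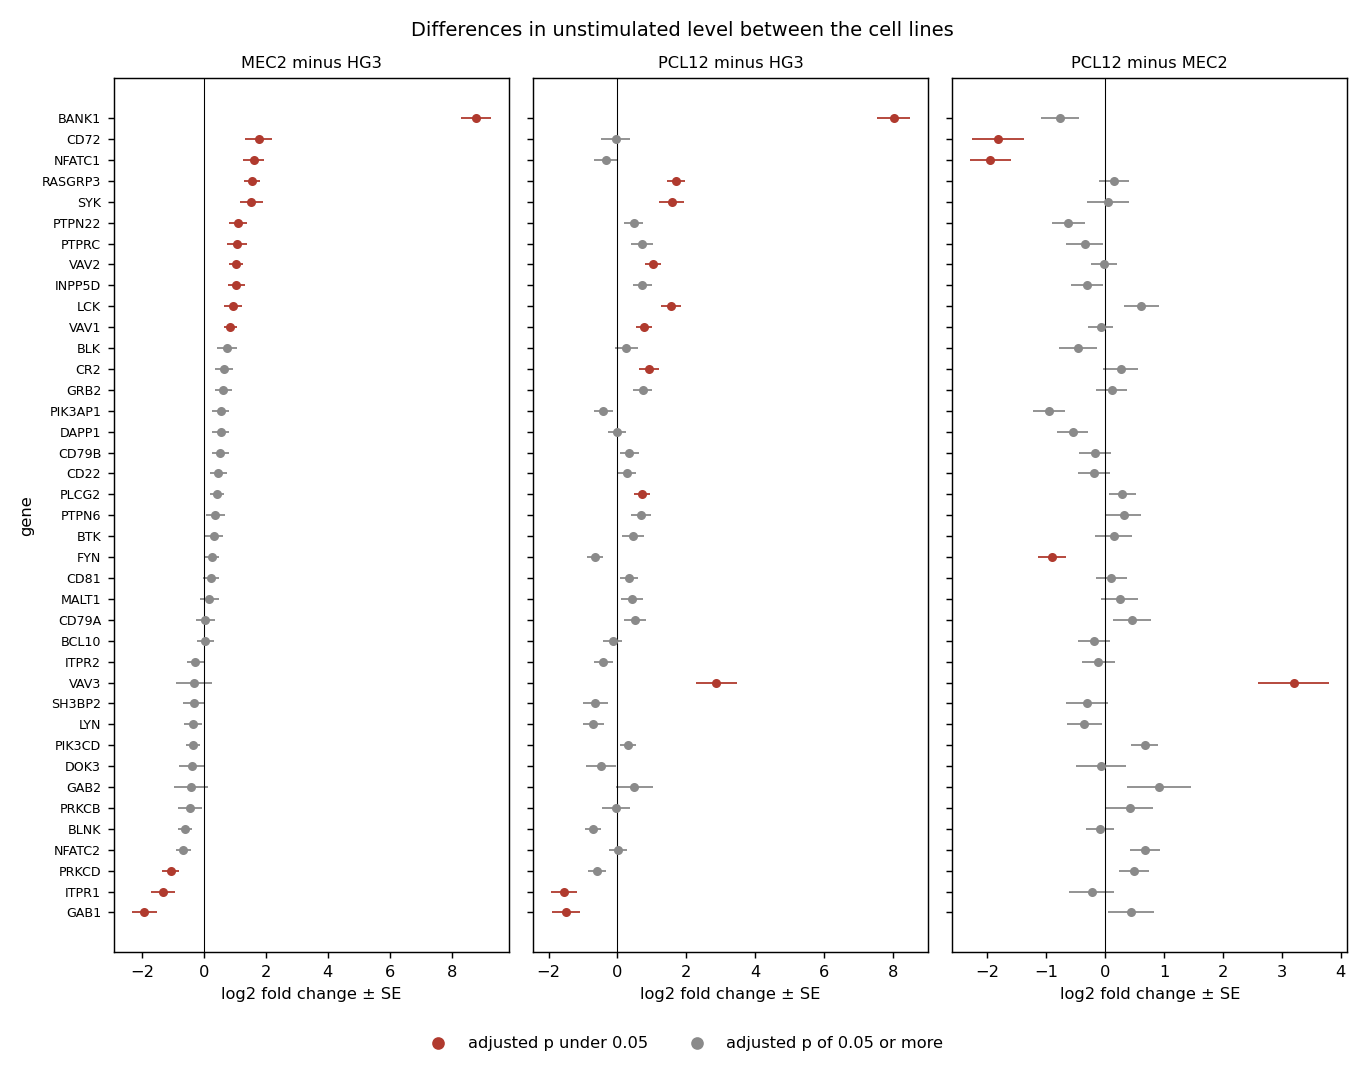
Difference in unstimulated level of each of the 39 genes between the lines, as the fitted Log2FC with its SE as the bar, with genes in the order of MEC2 minus HG3. Red points have an adjusted p under 0.05 (edgeR), 14 in the first panel, 11 in the second and 4 in the third.

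A list of 48 further genes of the pathway was read beside these, all of them tested. Of these, 8 were higher and 3 lower in MEC2 than in HG3, 5 were higher and 5 lower in PCL12 than in HG3, and 1 was lower in PCL12 than in MEC2. These counts stand against the same shares of all genes as above, 4.81% and 4.97%, 4.87% and 4.57%, and 1.53% and 0.524%, and against 9.17% and 8.85%, 9.14% and 8.14%, and 3.23% and 1.18% of the genes whose mean reached 1 CPM. FCGR2B, the inhibitory Fc receptor of B cells, was at 0.567 to 3.45 CPM in HG3, at 24.8 to 28.3 CPM in MEC2 and at 18.1 to 29.9 CPM in PCL12 (Log2FC 3.85 and 3.62). ITPKB, which consumes the calcium messenger, was higher in MEC2 than in HG3 (Log2FC 2.15). CD5, an inhibitory receptor and CLL marker, was at 24.1 to 69.6 CPM in HG3 and had 3 counts over the 3 MEC2 libraries, with 0.0929 to 1.35 CPM in PCL12. CD37 was lower in PCL12 than in HG3 (Log2FC -1.48). Adjusted p-values for these differences, CD5 included, ranged from 4.62e-07 to 0.000614 (edgeR). The PCL12 counts and differences of the further genes rest on all 3 PCL12 replicates and are not given here with replicate 1 only.

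CpG for 4 h called none of the 39 genes at an adjusted p under 0.05 in HG3, MEC2 or PCL12, in the mean of the lines or in the test of a difference between lines. The same edgeR fit called 1 gene among all 31872 in HG3 (0.00314%), 1 in MEC2 (0.00314%), 0 in PCL12 (0%), 3 in the mean (0.00941%) and 0 for a difference between lines (0%). DESeq2 and limma-voom called none of the 39 genes either. At an unadjusted P under 0.05 there were 2 of the 39 genes in HG3, 3 in MEC2, 0 in PCL12, 5 in the mean and 1 in the test between lines, where 3.73, 2.46, 2.09, 4.04 and 2.85% of all genes were. Among genes whose mean reached 1 CPM the shares were 1.62, 2.03, 0.736, 2.48 and 1.04%, against 5.13, 7.69, 0, 12.8 and 2.56% of the 39 genes. The median Log2FC of the 39 genes was 0.10 in HG3 with 24 genes above 0, -0.17 in MEC2 with 11 above 0 and -0.16 in PCL12 with 10 above 0. Over all genes it was 0, 0 and 0.02. Without HG3 unstimulated replicate 2, the HG3 median was -0.07 with 13 genes above 0.

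Each replicate series held 1 unstimulated and 1 stimulated library, and the fit with the replicate number as a block within each line, which compares the members of a pair, called more genes. It called 43 of all genes in HG3 (0.135%), 106 in MEC2 (0.333%), 15 in PCL12 (0.0471%), 177 in the mean of the lines (0.555%) and 38 for a difference between lines (0.119%). Of the 39 genes, BANK1 was called in HG3 and in the test between lines, PIK3CD in MEC2 and in the mean, and none in PCL12. Counting pairs alone, 4 genes were higher and 8 lower in all 3 pairs of HG3, where 8.31% and 10.8% of 13991 genes whose mean reached 1 CPM were. In MEC2, 7 were higher and 13 lower, against 11.1% and 13.4% of those genes, and in PCL12 3 were higher and 10 lower, against 8.11% and 12.8%.

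**Figure D4:**
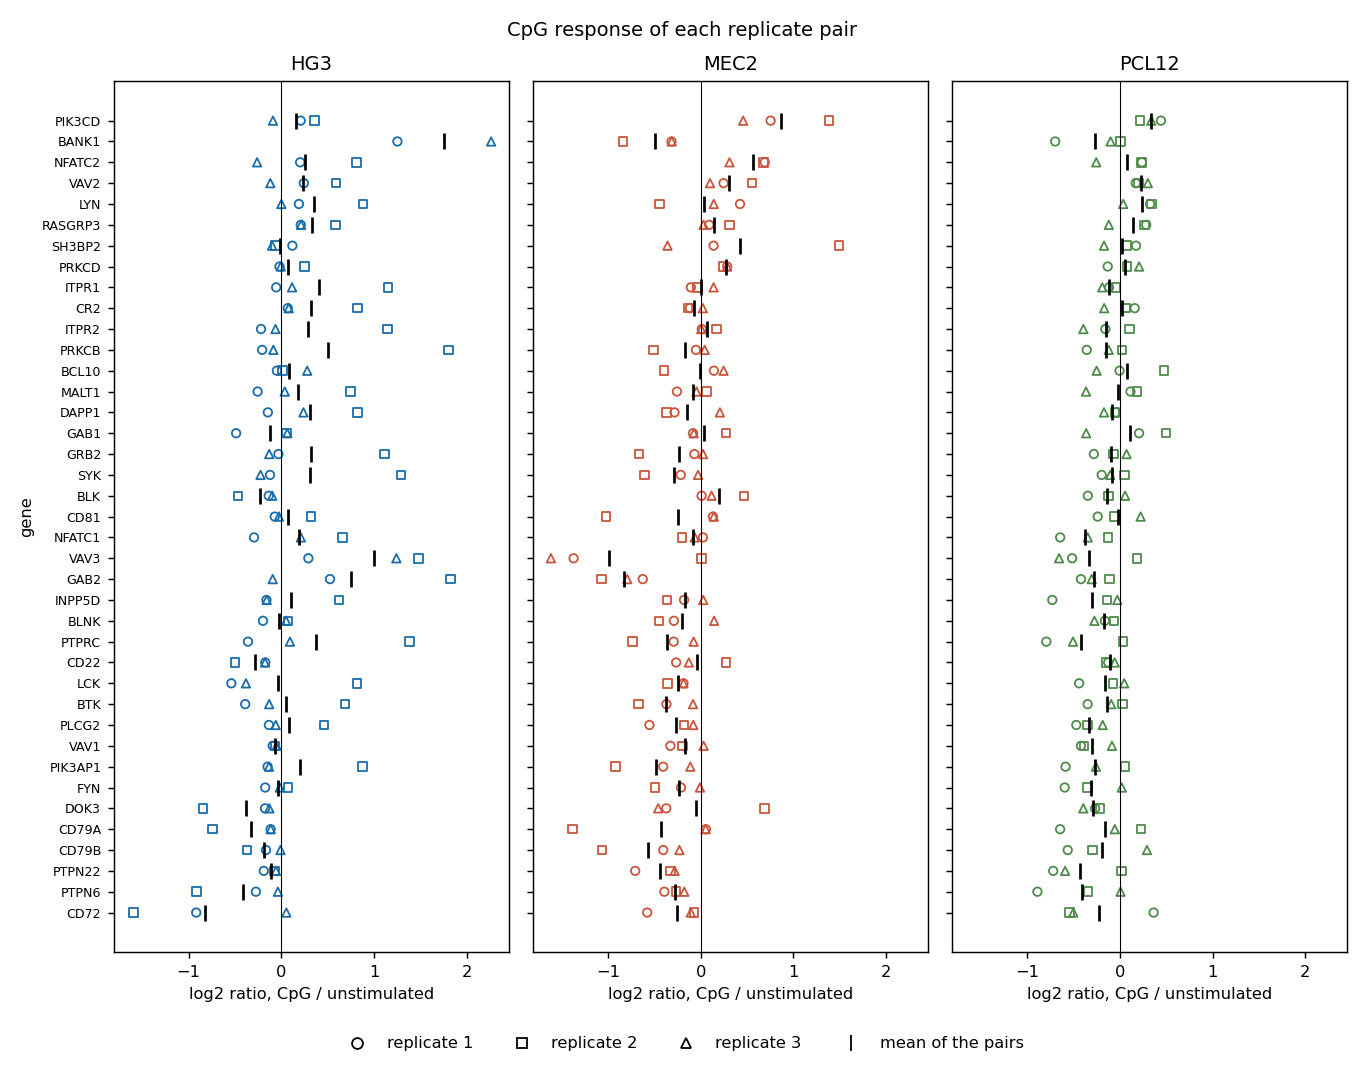
Log2 ratio of the CpG-stimulated to the unstimulated level of each replicate pair in the 3 lines, with a black bar at the mean of the pairs, for the 39 genes in the order of the mean over lines. PIK3CD is at the top, with ratios above 0 in each MEC2 and PCL12 pair, and many HG3 ratios of replicate 2, whose unstimulated library had 20.2% mitochondrial counts, lie far from those of the other pairs. The ratio of BANK1 in HG3 replicate 2 has no value because its unstimulated library had 0 counts.

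PIK3CD, the leukocyte catalytic subunit of PI3-kinase and the target of idelalisib, had the smallest P with CpG in MEC2 and in the mean of the lines. In MEC2 it was at 238, 195 and 246 CPM without and at 401, 508 and 339 CPM with CpG, so that all stimulated libraries exceeded all unstimulated ones and the log2 ratios of the pairs were 0.75, 1.38 and 0.46. PCL12 went from 397, 383 and 304 to 539.5, 445 and 385 CPM, with log2 ratios of 0.44, 0.22 and 0.34. In both arms, PCL12 replicates 2 and 3 were the libraries that differed from replicate 1 in genes abundant in MEC2, and the part of this in these ratios was not tested. With PCL12 replicate 1 only, the PIK3CD Log2FC with CpG was 0.45 ± 0.45 in PCL12 and 0.50 ± 0.20 in the mean of the lines. HG3 went from 267, 264 and 344 to 309, 338 and 323 CPM, with log2 ratios of 0.21, 0.36 and -0.09. The Log2FC in MEC2 was 0.88 ± 0.23 (adjusted p = 1, edgeR), and with the replicate block 0.86 ± 0.21 (adjusted p = 0.0170). MEC2 replicates 1 and 2 did not correlate best with their own numbers, so that the pairing behind this call rests on the study's design. Over the mean of the lines it was 0.45 ± 0.13 (adjusted p = 1, edgeR), with an adjusted p of 0.0351 with the replicate block. Without the MEC2 replicate 2 pair, which includes the stimulated library with 19.7% mitochondrial counts, the blocked Log2FC in MEC2 was 0.61 (adjusted p = 0.538) and that of the mean 0.37 (adjusted p = 0.0572). Leaving out a pair kept the blocked call in 5 of 9 fits for MEC2 and in 2 of 9 for the mean, and the highest adjusted p for the mean, 0.360, came without the PCL12 replicate 1 pair. The response was not shown to differ between lines (adjusted p = 1, edgeR, and also with the replicate block), and exons of CLSTN1 overlap those of PIK3CD on the other strand.

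**Figure D5:**
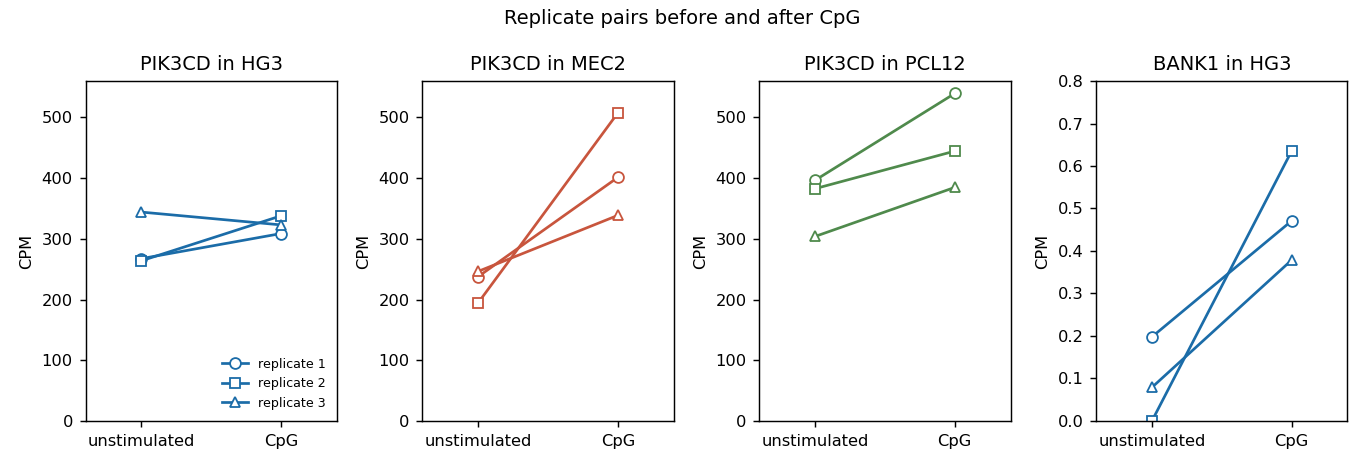
PIK3CD in the 3 lines and BANK1 in HG3, in CPM, with a line joining the unstimulated and CpG-stimulated library of each replicate. PIK3CD was higher with CpG in all 3 pairs of MEC2 and PCL12 and in 2 of 3 pairs of HG3, and BANK1 in HG3 lay below 1 CPM in all 6 libraries.

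BANK1 in HG3 was at 0.198, 0 and 0.0789 CPM without and at 0.471, 0.635 and 0.378 CPM with CpG, that is 9, 0 and 3 counts against 18, 21 and 12. The ratio of the summed levels was 4.25 (exact 95% interval 2.23 to 8.75, counting error only). The fitted Log2FC was 2.12 ± 0.49 (adjusted p = 1, edgeR) and 2.10 ± 0.46 with the replicate block (adjusted p = 0.00812), and this call ended without the HG3 replicate 2 pair (Log2FC 1.58, adjusted p = 0.368). The unstimulated library of that pair, with 0 BANK1 counts, had 20.2% mitochondrial counts. In MEC2, BANK1 went from 47.2, 52.1 and 52.2 CPM to 37.9, 29.2 and 42.1 CPM, lower in each pair (Log2FC -0.47 ± 0.32, adjusted p = 1, edgeR), and in PCL12 from 27.0, 26.8 and 35.5 to 16.7, 27.0 and 33.2 CPM. The test of a difference between lines gave an adjusted p of 1 (edgeR) and an adjusted p of 0.00437 with the replicate block, or 0.152 without the HG3 replicate 2 pair. Even with CpG, BANK1 in HG3 lay below each library of the other lines. Its mean there was 0.495 CPM, against 50.5 CPM in unstimulated MEC2. Genes chosen as abundant in MEC2 and low in HG3 replicate 1 had medians of 1.13 to 3.28% of the MEC2 level in the HG3 libraries. The part of such a background in the BANK1 counts of HG3 was not tested.

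Other genes reached an unadjusted P under 0.05 with an adjusted p of 1 (edgeR). NFATC2 in MEC2 went from 41.0, 39.3 and 50.2 CPM to 66.3, 62.8 and 62.3 CPM, all stimulated libraries above all unstimulated ones (Log2FC 0.55 ± 0.25). CD79B in MEC2 went from 155, 135 and 77.2 CPM to 117, 64.5 and 65.9 CPM, lower in each pair with overlap of the groups (Log2FC -0.57 ± 0.28). Its log2 ratios were -0.40, -1.06 and -0.23, with the largest fall in replicate 2, whose stimulated library had 19.7% mitochondrial counts. CD72 in HG3 went from 4.15, 9.60 and 2.74 to 2.20, 3.18 and 2.84 CPM, a difference that rested on replicate 2, since without HG3 unstimulated replicate 2 the Log2FC was -0.31. In the mean of the lines, PTPN6 was lower with CpG (Log2FC -0.37 ± 0.17), as were CD72 (Log2FC -0.54 ± 0.25) and CD79B (Log2FC -0.33 ± 0.16), while BANK1 was higher (Log2FC 0.48 ± 0.22), a mean that came from HG3 alone, since BANK1 was at -0.47 in MEC2 and -0.22 in PCL12. Leaving out 1 library, an unadjusted P under 0.05 was kept in 15 of 18 fits for CD72 in HG3, 14 for NFATC2, 6 for CD79B in MEC2, and in the mean 11 for CD72, 9 for PTPN6 and 7 for BANK1. The highest P came for NFATC2 without MEC2 unstimulated replicate 2, for CD79B without MEC2 unstimulated replicate 1 and for PTPN6 without HG3 unstimulated replicate 1.

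No CpG difference was detected for the core kinases and adaptors. In the order HG3, MEC2, PCL12, SYK had a Log2FC with CpG of 0.17 ± 0.36, -0.28 ± 0.36 and -0.10 ± 0.36, and BTK of -0.05 ± 0.31, -0.31 ± 0.31 and -0.15 ± 0.31. LYN was at 271, 257 and 363 CPM in CpG-stimulated HG3, at 291, 148 and 181 CPM in MEC2 and at 187, 223 and 134 CPM in PCL12 (Log2FC 0.27 ± 0.30, 0.09 ± 0.30 and 0.26 ± 0.30). For BLNK the Log2FC was -0.05 ± 0.23, -0.19 ± 0.23 and -0.17 ± 0.23, for PLCG2 0.05 ± 0.23, -0.26 ± 0.23 and -0.33 ± 0.23, and for CD79A -0.38 ± 0.32, -0.37 ± 0.32 and -0.25 ± 0.32, in the same order of lines. PLCG2 was lower in all 3 pairs of both MEC2 and PCL12, and none of these values passed an unadjusted P of 0.05. Of the 48 further pathway genes, none was called with CpG by edgeR, and 0, 2, 1 and 4 had an unadjusted P under 0.05 in HG3, MEC2, PCL12 and the mean, where 3.73, 2.46, 2.09 and 4.04% of all genes did. Among genes whose mean reached 1 CPM, 1.62, 2.03, 0.736 and 2.48% did.

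The bases before the start of PIK3CD and BANK1 are shown because these were the 2 genes with a CpG call in the paired fit. RefSeq (GRCh38.p14) gave the 250 bases upstream of the start for 33 of the 39 genes, without CD79B, LYN, BLK, CD81, GAB1 and ITPR2. PIK3CD lies at chr1:9629889-9729114 on the plus strand and BANK1 at chr4:101411286-102074812 on the plus strand (GENCODE 44, GRCh38), and the RefSeq starts used lie inside these spans. The windows are chr1:9651481-9651730 and chr4:101790480-101790729, both on the plus strand, written 5′ to 3′. Capitals mark 10 bases of PIK3CD, beginning 40 bases before the start, that match a loose NF-κB consensus with any base at its middle positions. BANK1 had no match.
PIK3CD: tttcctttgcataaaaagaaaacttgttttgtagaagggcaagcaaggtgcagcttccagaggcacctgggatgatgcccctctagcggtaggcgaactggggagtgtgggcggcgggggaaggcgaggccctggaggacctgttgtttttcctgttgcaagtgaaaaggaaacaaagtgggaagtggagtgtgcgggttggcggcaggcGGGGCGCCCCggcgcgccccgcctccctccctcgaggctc
BANK1: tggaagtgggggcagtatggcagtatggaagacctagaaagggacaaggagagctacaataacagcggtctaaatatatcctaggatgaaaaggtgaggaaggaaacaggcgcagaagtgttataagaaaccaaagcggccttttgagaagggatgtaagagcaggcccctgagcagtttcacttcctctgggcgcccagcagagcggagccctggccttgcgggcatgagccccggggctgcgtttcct

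On both strands, this loose NF-κB consensus matched in 5 of the 33 windows (15.2%; BTK, ITPR1, LCK, PIK3CD and VAV2) and in 9.57% of 27305 promoter windows of the same length. The pattern CCCNNGGGA of the B-cell factor EBF1, searched on both strands, matched in 6 of 33 (18.2%; DOK3, FYN, ITPR1, NFATC1, PTPN6 and SH3BP2) and in 7.81% of all windows. Both patterns hold runs of G and C, PIK3CD and BANK1 had no EBF1 match, and a match of letters is a description of the sequence and not a bound site.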

How the data were processed

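The authors deposited whole-number read counts per gene symbol, with 18 libraries of 3 lines. Per the labels, RNA was extracted with ReliaPrep kits and libraries were Lexogen Stranded QuantSeq, while the study's methods name a Qiagen extraction kit and a stranded protocol. The submitters' processing notes name FastQC, MultiQC, Trimmomatic, STAR, featureCounts and hg38, without versions. The annotation, the strand setting and the handling of duplicates are not given in the sources used here.

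Groups came from the labels. Genes whose sum over all libraries reached 10 counts (31872 of 42248 with a count) were scaled by TMM and fitted with 6 group means in edgeR 4.0.16 (R 4.3.3), with the robust quasi-likelihood test, 12 residual degrees of freedom and Benjamini-Hochberg adjustment over all genes tested. CPM values use the same scaling. The p-values measure the spread between these libraries, which may be technical. DESeq2 1.42.0 and limma 3.58.1 were alternatives. The fits were also run on simulated counts, and the outcome is not reported here. No replicate libraries were copies of each other, with a chi-square per gene of 18.8 to 431.

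The series' design pairs 1 stimulated with 1 unstimulated sample in each replicate series. Deviations of same-numbered libraries from their group means correlated at 0.259, 0.212 and 0.480 for the HG3 numbers, at 0.189, -0.0133 and 0.611 for those of MEC2 and at 0.607, 0.494 and 0.515 for those of PCL12. In MEC2, CpG replicate 1 correlated more with unstimulated replicate 2 (0.449) and CpG replicate 2 with unstimulated replicate 1 (0.388) than with their own numbers, so that the MEC2 block rests on the design and not on these values. The fit with the replicate block is given beside each CpG call that it changed.

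Genes were named by rule: the core genes, up to 8 per comparison of unstimulated lines by the smallest P among calls without overlap of the groups, up to 4 per CpG contrast at an unadjusted P under 0.05 or called with the replicate block, and up to 4 called genes per comparison from the further pathway list. Some genes of that list are counted but not reported here by name. Members outside the rule were named after their values were seen. The 39 genes, the lists and the tests were chosen with earlier results of these data known.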

Additional observations from a re-analysis of the deposited data

Results flagged for a closer look

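For 2 of the 39 genes (5.13%), all 3 replicate pairs of a line were higher with CpG and all 3 of another line were lower, a pattern that 3.93% of 13991 genes with a mean from 1 CPM up also showed, and neither gene passed in both lines. BANK1 was higher with CpG in all 3 pairs of HG3 (fitted Log2FC 2.12) and lower in all 3 pairs of MEC2 (Log2FC -0.47), a difference of 2.59, for which the test between lines gave an adjusted p of 1 (edgeR) and an adjusted p of 0.00437 with the replicate block. The HG3 values rest on 12 unstimulated and 51 stimulated counts.

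BLK was higher in all 3 pairs of MEC2 (Log2FC 0.23) and lower in all 3 pairs of HG3 (Log2FC -0.27), a difference of 0.50, and the test between lines gave an adjusted p of 1 (edgeR), so that a difference between the lines was not shown. The smallest MEC2 ratio was 0.01 on the log2 scale.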

How the results depend on the processing

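No difference named for its test result changed direction under the alternatives run. With the replicate block, the small BTK difference with CpG in HG3 went from a Log2FC of -0.05 to 0.05. With the replicate number as a block common to the lines, which the labels do not tie across lines, SYK in PCL12 over MEC2 went from 0.06 to -0.02, the ITPR1 call of MEC2 over HG3 ended (adjusted p = 0.0574, edgeR), and BLNK (0.0456) and GRB2 (0.0357) passed for PCL12 over HG3. Calls between unstimulated lines numbered 14 for MEC2 over HG3 (9 to 14 leaving out 1 library, the lowest without MEC2 unstimulated replicate 1), 11 for PCL12 over HG3 (7 to 13, the lowest without PCL12 unstimulated replicate 3, and 6 with PCL12 replicate 1 only) and 4 for PCL12 over MEC2 (2 to 5, and 2 in the 9 unstimulated libraries alone). Causes were not tested. Adjusted CpG calls numbered 1 with the replicate block in HG3, MEC2, the mean and the test between lines, 1 in HG3 with no filter, and 1 in MEC2 and the mean with the block in limma-voom, and 0 in the fits that left out 1 library without the block. With the block, chosen after seeing the data, leaving out 1 pair gave 0 to 1 in each of these and 0 in PCL12. Genes at an unadjusted P under 0.05 numbered 1 with limma-voom and 4 with its block in HG3 (1 to 9 with libraries or pairs left out). In MEC2 they were 7 with the replicate block, 8 with the block in limma-voom and 1 with PCL12 replicate 1 only (1 to 11). In PCL12 they were 2 with the replicate block, 5 with the block in limma-voom, 1 with limma-voom and 1 in its 6 libraries alone (0 to 6). In the mean they were 10 with the replicate block, 11 with the block in limma-voom, 3 with limma-voom and 2 with PCL12 replicate 1 only (2 to 12). In the test between lines they were 5 with the replicate block, 2 with the block in limma-voom, 3 with DESeq2, and 2 with limma-voom or a stricter filter (1 to 6). At the lowest depth, 3 counts are 0.147 CPM, so that BANK1 in unstimulated HG3 was near the limit of detection.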
